A study of Mus musculus with 4 samples.

Results

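The 10 genes described here, *Aqp7*, *Gk*, *Gpd1*, *Gpd2*, *Pck1*, *Gpam*, *Agpat2*, *Lpin1*, *Dgat1* and *Dgat2*, belong to glycerol handling and the synthesis of triglyceride. They were taken by name, and each was given every chromatin peak on its body or in the 2000 bases upstream of it, which made 91 of the 189598 peaks and 10 of the 17196 protein-coding genes with a peak. The measurements are single-nucleus ATAC-seq (snATAC-seq) of inguinal white adipose tissue (iWAT), in which the Tn5 transposase marks open chromatin and barcodes assign each read to a nucleus. All mice were 8-week-old C57BL/6 males with no engineered allele, and 3 mice made up each of 7 groups. The day0RT mice stayed at room temperature (22 °C) with no intervention. The day1C, day3C and day7C mice were kept in the cold (6.5 °C) for 1, 3 or 7 days. The day1CL, day3CL and day7CL mice were kept at room temperature (22 °C) and treated for 1, 3 or 7 days with CL-316,243 (CL). CL is an agonist of the β3-adrenergic receptor and was given at 1 mg/kg. None of the 7 groups was given a vehicle or matched the treated mice in time, so effects of dosing and handling cannot be told apart from those of CL. The deposited annotation puts the 32552 nuclei into 12 cell types, among them white and beige adipocytes.

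Triglyceride is assembled on a backbone of glycerol-3-phosphate. Adipocytes make this backbone from glucose, from smaller precursors by way of phosphoenolpyruvate (glyceroneogenesis) and, where glycerol kinase is present, from glycerol itself. White adipocytes are classically regarded as poor in glycerol kinase, whereas thermogenic adipocytes, which hydrolyse and rebuild triglyceride at the same time, are known for it. Acyl chains are then added step by step and the phosphate is removed before the last chain is attached.

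Each matrix entry is 0 or 1, so the count of a peak tells in how many nuclei it was detected. That number also depends on the depth per nucleus. The accessibility of a gene is given in CPM, the sum of its peak counts per 1e+06 counts on all genes with a peak, for the nuclei of 1 mouse and 1 cell type, where at least 10 nuclei were present. The 21 mice gave 1111 to 2021 nuclei each, with 29 to 933 adipocyte nuclei (white and beige together) and 62318 to 4279964 adipocyte counts. Median counts per adipocyte nucleus of a mouse were 1330.5 to 2697 in day0RT, 1497.5 to 2026 in day1C, 2007 to 4156 in day3C and 2058 to 3513.5 in day7C. After CL they were 1437.5 to 1619 in day1CL, 1681 to 4103 in day3CL and 1932 to 6685.5 in day7CL. The day1CL mice were the most uneven, with 29, 68 and 654 adipocyte nuclei, and lymphocytes made up 11.9% to 90.8% of the nuclei of a mouse. Of the barcode sequences, 4218 occurred in 2 or more mice (26.8% of nuclei), always in mice with the same replicate number and of different days. Without the nuclei that carry such a barcode, 22 of the 25 differences in members called below remained called and 3 did not, and those are named where they are given. The adipocyte clusters carried the markers of their names, since 6 adipocyte genes summed to 1602 to 2420 CPM in white adipocytes, 1522 to 2277 in beige adipocytes and 170 to 242 in B cells, and 5 thermogenic genes summed to 826 to 1333 in beige and 489 to 779 in white adipocytes. The cluster annotated as vascular smooth muscle cells (VSMC) went against its name, with 949 to 1504 CPM over 5 skeletal muscle genes and 0 to 202 CPM over 4 smooth muscle genes (10 mice).

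The peaks of the members lay mostly inside the genes. By the GENCODE annotation of GRCm38 (mm10), 8 of the 91 peaks covered the gene start and 17 others touched an exon. A further 62 lay in introns without touching an exon, and 4 lay upstream. *Gk* (chromosome X, 85701937 to 85776819, minus strand) had 5 peaks over 74.9 kb, whereas *Lpin1* (chromosome 12, 16535669 to 16610966, minus strand) had 24 over 75.3 kb. *Gpd2* (chromosome 2, 57237635 to 57370719, plus strand) had 21 and *Gpam* (chromosome 19, 55067268 to 55127238, minus strand) had 15. The compact genes *Gpd1* (chromosome 15, 99717515 to 99725005, plus strand), *Pck1* (chromosome 2, 173153048 to 173159273, plus strand) and *Aqp7* (chromosome 4, 41033074 to 41048139, minus strand) had 3 each. *Agpat2* (chromosome 2, 26593057 to 26604417, minus strand) also had 3, all of them shared with the read-through gene *Gm20532*, so its values could not be separated from that gene. *Dgat1* (chromosome 15, 76502015 to 76511953, minus strand) had 5 peaks and *Dgat2* (chromosome 7, 99153658 to 99182719, minus strand) had 9. No peak covered the start of *Gpd2* or *Lpin1*. The start is the 5′ end of the GENCODE gene record, so a promoter further inside a gene does not count as near it.

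The sequences of 6 of these peaks are shown because the differences reported below fall on them. They were read from the RefSeq GRCm38.p6 (mm10) genome, 5′ to 3′, and the capitals mark a match to a consensus motif. The first lies at chrX:85777396-85777522 on the minus strand, the strand of *Gk*, in the peak over the *Gk* start, and its capitals match TCAAGGTCA, the motif of estrogen-related receptors, 641 bases upstream of the start.
Gk start peak: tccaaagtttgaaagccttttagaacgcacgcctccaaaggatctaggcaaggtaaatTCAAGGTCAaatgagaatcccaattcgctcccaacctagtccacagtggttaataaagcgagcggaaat
The second lies at chr15:99716511-99716616 on the minus strand, opposite to the gene, in the peak upstream of *Gpd1*, with capitals on a direct repeat of AGGTCA with 1 base between, the motif of PPAR-RXR, counted with any base at the fourth place of each copy.
Gpd1 upstream peak: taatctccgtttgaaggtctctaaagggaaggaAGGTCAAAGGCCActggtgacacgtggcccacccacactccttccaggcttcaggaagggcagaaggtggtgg
The third holds another such repeat, in an intron of *Dgat2* at chr7:99161624-99161756 on the plus strand, opposite to the gene.
Dgat2 intron peak: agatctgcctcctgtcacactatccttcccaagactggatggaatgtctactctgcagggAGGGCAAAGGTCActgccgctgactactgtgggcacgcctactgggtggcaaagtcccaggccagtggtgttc
The fourth, at chr2:57252695-57252820 on the plus strand, is in an intron of *Gpd2* and has capitals on an E-box, CACGTG.
Gpd2 intron peak: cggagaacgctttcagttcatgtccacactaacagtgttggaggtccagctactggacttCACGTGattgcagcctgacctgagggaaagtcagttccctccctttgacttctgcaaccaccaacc
The last pair shows the middle of the peak upstream of *Pck1*, at chr2:173151884-173152083 on the plus strand, and of an intron peak of *Dgat1*, at chr15:76509782-76509981 on the minus strand. Neither window held a match.
Pck1 upstream peak: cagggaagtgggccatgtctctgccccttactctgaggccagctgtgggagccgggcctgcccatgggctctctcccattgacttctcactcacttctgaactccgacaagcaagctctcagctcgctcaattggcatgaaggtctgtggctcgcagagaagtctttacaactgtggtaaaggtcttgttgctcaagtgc
Dgat1 intron peak: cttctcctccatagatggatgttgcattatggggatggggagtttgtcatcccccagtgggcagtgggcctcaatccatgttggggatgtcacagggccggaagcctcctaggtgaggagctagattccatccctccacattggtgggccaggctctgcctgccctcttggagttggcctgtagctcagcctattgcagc

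Motifs were searched on both strands and are given as a description, since a match does not show that a factor binds. The PPAR-RXR repeat was found in 4 of the 91 member peaks (4.40%) and in 1.16% of all 189598 peaks. Besides the peaks shown, these were the *Dgat2* peak at 23504 bases and the *Lpin1* peak at 67436 bases. Neither was called in any comparison with day0RT below, nor was the upstream peak of *Gpd1*. The E-box was found in 13 member peaks (14.3%) and in 8.47% of all peaks. Another E-box of *Gpd2*, in its peak at 64402 bases, lay in a peak that was not called against day0RT either. The estrogen-related receptor motif was found in 1 member peak and in 1.13% of all peaks, and the SREBP motif TCACNCCAC in 3 member peaks, 2 of *Lpin1* and 1 of *Gpam*, and in 2.04% of all peaks. The CREB motif TGACGTCA, in 0.748% of all peaks, had no match in a member peak, nor had AGAACA followed after 3 bases by TGTTCT, the glucocorticoid receptor motif, in 0.0353% of all peaks. In the *Gpd1* sequence an E-box lies beside the repeat without overlapping it.

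Across the 12 cell types the members fell into different patterns, and their levels are a description with no test, because the cell types were defined on the same matrix. The patterns of *Aqp7* and *Gk* differed from each other. *Aqp7*, the aquaglyceroporin through which glycerol crosses the adipocyte membrane, had 117 ± 41.4 CPM in beige (SD, n = 19 mice), 108 ± 79.7 in vascular endothelial (VEC, n = 15) and 94.3 ± 18.4 in white adipocyte nuclei (n = 21). These 3 levels were within their spread of each other, and the next, in APC2 (the second of 2 adipocyte progenitor clusters), was 18.9 ± 17.7 CPM (n = 19). With a minimum of 30 nuclei in place of 10, VEC ranked first. In CPM *Gk*, the kinase that phosphorylates glycerol, was not highest in adipocytes. Pooled over mice and with no correction for depth, its start peak was open in 17.8% of beige, 10.9% of white and 9.25% of B cell nuclei. The level of the gene was 84.7 ± 17.8 CPM in B cells (n = 21), 83.3 ± 30.4 in Cd8 T cells (n = 20), 74.3 ± 26.2 in beige adipocytes and 45.0 ± 12.6 in white adipocytes, and no neighbours in the order of all 12 cell types differed by more than the larger of their SDs.

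Of *Pck1*, *Gpd1* and *Gpd2*, the first was the most restricted to adipocytes. *Pck1*, the cytosolic phosphoenolpyruvate carboxykinase of glyceroneogenesis, had 163 ± 59.9 CPM in white (n = 21) and 152 ± 73.7 in beige adipocytes (n = 19), and its highest level elsewhere was 9.15 ± 19.3 CPM in APC1 (n = 20), 17.9-fold lower than in white adipocytes. *Gpd1*, the cytosolic glycerol-3-phosphate dehydrogenase, had 156 ± 50.0 CPM in beige adipocytes, 155 ± 51.3 in the VSMC cluster with its skeletal muscle markers (n = 10) and 120 ± 17.6 in white adipocytes. It did not exceed 22.0 CPM elsewhere. *Gpd2*, the mitochondrial glycerol-3-phosphate dehydrogenase that completes the glycerol phosphate shuttle with *Gpd1*, was again high in the VSMC cluster (298 ± 125 CPM) and in beige adipocytes (273 ± 80.4). White adipocytes, with 155 ± 35.9 CPM, stood level with Cd8 T cells (150 ± 31.8) and other lymphocytes for this gene. The peaks behind these sums differed, since the peak at 792 bases held 1623 of 1866 counts in B cells and 892 of 3037 in white adipocytes. With only the peaks near its start, Cd8 T cells ranked first for *Gpd2*.

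The acyltransferases and the phosphatase had no common pattern. *Gpam*, the mitochondrial acyltransferase that adds the first chain, was highest in APC2 (286 ± 76.4 CPM, n = 19), followed within the spread by beige (258 ± 57.6) and white adipocytes (249 ± 30.1), and immune cells had at most 35.7 CPM. *Agpat2*, which adds the second chain and whose loss causes generalized lipodystrophy, had 136 ± 41.9 CPM in beige adipocytes, 131 ± 27.0 in white adipocytes and 124 ± 82.8 in VEC. *Lpin1*, the phosphatidic acid phosphatase lipin, was at 471 ± 112 CPM in the VSMC cluster, 460 ± 81.3 in white and 457 ± 86.7 in beige adipocytes, against 186 ± 53.0 in macrophages, the next in order. With only the peaks near its start, or a minimum of 30 nuclei, white adipocytes ranked first for *Lpin1*.

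Both enzymes of the final acylation were highest in adipocytes. *Dgat1*, which joins the third chain, had 178 ± 39.6 CPM in white and 157 ± 49.4 in beige adipocytes, and the other 10 cell types were close together between 69.8 and 91.5 CPM. *Dgat2*, which does the same from an unrelated protein family, had 260 ± 32.0 CPM in white and 227 ± 51.8 in beige adipocytes, and 143 ± 67.3 in the VSMC cluster. Compared per kilobase of peak, the levels in white adipocytes ran from 79.4 CPM per kb in *Pck1*, over 64.1 in *Dgat1*, 62.8 in *Gpd1*, 52.1 in *Dgat2* and 46.5 in *Agpat2*, to 39.2 in *Aqp7*, 35.0 in *Lpin1*, 30.6 in *Gpam*, 18.6 in *Gk* and 16.5 in *Gpd2*.

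**Figure D1:**
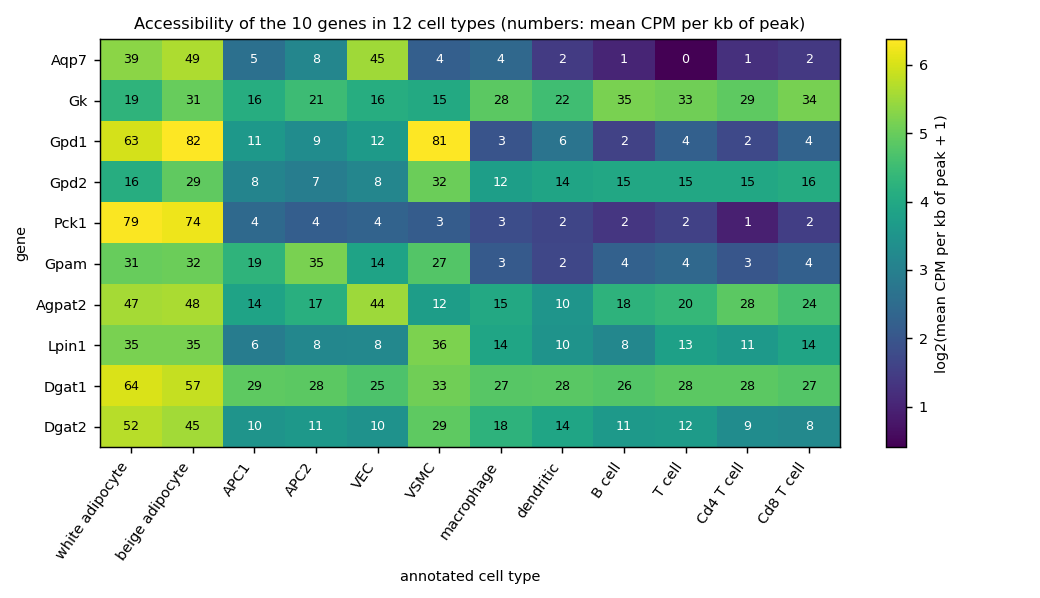
Mean accessibility of the 10 genes (rows) in the 12 annotated cell types (columns), in CPM per kb of peak, with the mean printed in each cell and the colour on a log2 scale. *Pck1* stands out only in white and beige adipocytes (79.4 and 73.8 CPM per kb), while *Gk* is spread over adipocytes and immune cells, with 31 CPM per kb in beige adipocytes and 35 in B cells.

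The genes most alike were those with the highest Pearson correlation of log2(CPM + 1) over the 12 cell type means, out of 15016 genes with at least 20 CPM in 1 cell type. For *Pck1* they were *Pomt1*, its chromosomal neighbour *Ctcfl*, and *Adrb3*, the gene of the receptor that CL activates (r = 0.98 for each). *Gpd2* was most like *Sdhd* (r = 0.98), a subunit of succinate dehydrogenase, *Pkm* (0.94), the muscle pyruvate kinase, and *Nit2* (0.93), and *Lpin1* like *Atp5j*, *Idh3a* and *Dlat* (0.94 each), which code for mitochondrial proteins. *Aqp7* was most like *Hcar1*, the lactate receptor of adipocytes, *Sptlc2* and *C130074G19Rik* (0.95 each), and *Gk* like *Mrpl46* (0.93), *Zfp60* (0.92) and *Slc25a51* (0.92). *Gpd1* was most like *Sox6* (0.98), *Abcc8* (0.98) and *Mal2* (0.97), and *Gpam* like *Alpl* and *Usp29* (0.98 each). *Dgat1* was most like *Pank3*, *Katnal2* and *Rbm28* (0.97 each), and *Dgat2* like *Bcl2l10* (0.97), *Nxnl1* (0.96) and *Alg9* (0.96). *Agpat2* was most like *Gm20532* (0.93), which shares its peaks, *Rgcc* (0.92) and *Egfl7* (0.90), the latter pair known from endothelium. Between members the closest were *Pck1* and *Dgat1* (0.95), *Dgat1* and *Dgat2* (0.91), *Lpin1* and *Dgat2* (0.88) and *Pck1* and *Dgat2* (0.86). The points share the same 12 sums of nuclei and differ in depth.

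Beige nuclei were more accessible than white nuclei at *Aqp7*, *Gk*, *Gpd1* and *Gpd2*, and less accessible at both final acyltransferases. With edgeR's quasi-likelihood test and Benjamini-Hochberg adjustment over 12770 genes, 4 of the 10 members were higher in beige (*Gk*, *Gpd2*, *Gpd1* and *Aqp7*) and 2 were lower (*Dgat1* and *Dgat2*). Of all genes, 13.6% were higher and 15.2% lower. The median log2 fold change was 0.10 over the members and 0.01 over all genes. The nuclei were assigned to both clusters from this same matrix, so the test is not independent of the labels. The white and beige libraries of a mouse entered it as independent. With the mouse as a block in edgeR, *Gpd2* stayed called (0.65, adjusted p = 7.44e-15), as did *Aqp7* (0.23, adjusted p = 0.0440).

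*Gpd2* differed in every mouse. White adipocytes had 70.7 CPM in the lowest, 152 in the median and 223 in the highest of 21 mice, and beige adipocytes 176, 274 and 458 in 19 mice. Beige was above white in 19 of the 19 mice with both (log2 fold change 0.68, standard error (SE) 0.07, adjusted p = 1.66e-13), although the 2 ranges overlapped. With only the peaks within 2000 bases of the start, the difference was gone (−0.0037, adjusted p = 0.993).

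*Gk* ranged from 28.7 over a median of 44.8 to 87.0 CPM in white adipocytes, and from 30.0 over 73.7 to 119 CPM in beige adipocytes. Beige was above white in 16 of 19 mice, by 0.77 on the log2 scale (SE 0.10, adjusted p = 3.88e-10). *Gpd1* ranged from 88.1 over 116 to 167 CPM in white and from 42.7 over 163 to 249 CPM in beige adipocytes, and was higher in beige in 15 of 19 mice (0.37, SE 0.09, adjusted p = 0.000257).

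*Aqp7* gave the smallest of these differences. It ranged from 73.0 over 87.7 to 133 CPM in white and from 63.7 over 114 to 247 CPM in beige adipocytes, and was higher in beige in 13 of 19 mice (0.24, SE 0.09, adjusted p = 0.0384). The call was lost by DESeq2 (adjusted p = 0.0677), with nuclei of unshared barcodes (0.13, adjusted p = 0.409), with no filter (adjusted p = 0.0689), with a minimum of 5 or 30 nuclei (adjusted p = 0.0610 and 0.103), in nuclei with at least 2000 counts (adjusted p = 0.0636), near the start (adjusted p = 0.244) and without any 1 of 9 mice (0.18 to 0.23): day0RT mouse 3, day3C mice 1 and 3, day7C mice 1 and 2, day1CL mouse 2, day3CL mice 1 and 3, and day7CL mouse 1.

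The final acyltransferases went the other way. *Dgat1* ranged from 111 over 178 to 256 CPM in white and from 97.5 over 137 to 285 CPM in beige adipocytes, and was lower in beige in 14 of 19 mice (−0.25, SE 0.08, adjusted p = 0.0131). *Dgat2* ranged from 206 over 260 to 314 CPM in white and from 171 over 211 to 360 CPM in beige adipocytes, and was lower in 15 of 19 mice (−0.22, SE 0.07, adjusted p = 0.00939). Near the gene start, the difference was −0.06 in *Dgat1* and −0.21 in *Dgat2* (adjusted p = 0.804 and 0.141). The 4 members that were not called had log2 fold changes of −0.13 in *Pck1* (SE 0.10), −0.01 in *Lpin1* (SE 0.06), 0.07 in *Gpam* (SE 0.06) and 0.13 in *Agpat2* (SE 0.09), and beige was the higher in 9, 10, 10 and 14 of 19 mice.

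**Figure D2:**
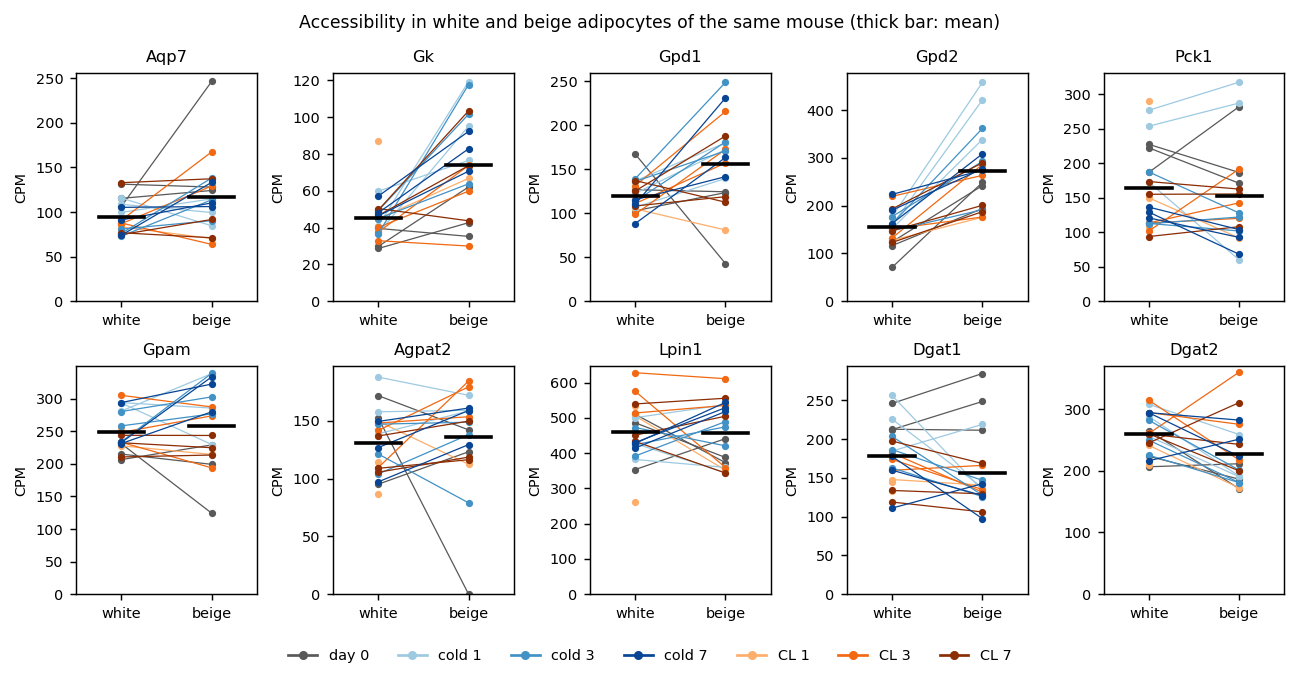
Accessibility in CPM (vertical axis, from 0) of each gene in white and beige adipocytes, with 1 line per mouse coloured by group and a thick bar at the mean of each cell type. Every line of *Gpd2* rises from white to beige, and the lines of *Lpin1* and *Pck1* cross in both directions. The day0RT mouse at 0 for *Agpat2* had 12 beige nuclei.

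Single peaks showed where some of these differences lay, among the peaks with enough counts to be tested. Of the 91 peaks, 46 passed the filter on low counts, and of these 7 were higher and 8 lower in beige, where 12.8% of all 24854 peaks tested were higher and 14.4% lower. With no filter 35 member peaks were called, and without day3C mouse 1 there were 9. In *Gpd2* only 5 of the 21 peaks were tested, so a difference at the others would not be seen. The 3 called all lay 15 to 19 kb into the gene, with log2 fold changes of 0.49 (SE 0.12) at 15162 bases from the start, 1.11 (SE 0.18) at 17754 and 0.84 (SE 0.20) at 19040. In *Gk* the start peak, which holds the estrogen-related receptor motif shown above, was the only 1 of 5 peaks tested (0.44, SE 0.11, adjusted p = 0.00114). The value of the whole gene was 0.77. The untested peak at 3445 bases was open in 0.994% of white and 4.77% of beige nuclei (59 and 51 counts), pooled over mice with no correction for depth. *Gpd1* was higher at its start (0.43, SE 0.11) and at the upstream peak with the PPAR-RXR repeat (0.32, SE 0.11).

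The lower peaks lay in the introns of *Dgat1* and *Dgat2*. In *Dgat1* those at 2071, 2936 and 3602 bases from the start were lower in beige by 0.53, 1.01 and 0.93 on the log2 scale, while the start peak was at 0.10 (SE 0.10, adjusted p = 0.521). *Dgat2* was lower at 6700 (−0.65) and 14468 bases (−0.52), and at the start −0.22 (SE 0.09) missed the threshold (adjusted p = 0.0505). Among members with no difference as a whole, *Pck1* was lower at its upstream peak (−0.41, SE 0.12, adjusted p = 0.00592) and not at its start (−0.05, SE 0.10), *Lpin1* was lower at 23568 and 26837 bases (−0.34 each), and *Gpam* was higher at 31572 bases (0.47).

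For the changes over time, white and beige nuclei of a mouse were summed and each treated group was compared with day0RT. The groups share the 3 day0RT mice, so their comparisons are not independent. Over all 7 groups 7 of the 10 members differed by the F test (*Gk*, *Gpd2*, *Pck1*, *Aqp7*, *Gpam*, *Lpin1* and *Dgat1*), as did 13.7% of all 14429 genes tested. Of the 6 comparisons with day0RT, *Pck1* and *Dgat1* fell in 4 each and *Gpd2* rose in 3. In such a sum, a change in the share of beige nuclei and a change within nuclei cannot be told apart, and beige nuclei rose from 7.69% to 12.2% of adipocyte nuclei in day0RT mice to 26.1% to 32.5% in day7C and 14.5% to 23.5% in day7CL mice. The value in white nuclei alone is given below for each call that was lost there.

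In day1C none of the 10 genes was called by edgeR (3 had an unadjusted p under 0.05) or by DESeq2, against 0.104% of all genes higher and 0.236% lower. In day3C 1 rose and 2 fell (all genes, 0.894% and 0.783%), and in day7C 2 rose and 2 fell (2.97% and 2.11%). After CL, 1 fell in day1CL (all genes, 1.15% higher and 1.46% lower), 2 rose and 2 fell in day3CL (3.08% and 1.69%), and 1 rose and 3 fell in day7CL (4.64% and 3.17%). With any 1 mouse left out, the number called stayed between 3 and 5 in day7C, but no member was called in day3C without day0RT mouse 2 or day3C mouse 1, in day1CL without day0RT mouse 1 or day1CL mouse 3, or in day7CL without day7CL mouse 1. It was 1 in day3CL without day0RT mouse 3 or day3CL mouse 2. With the replicate number as a block, 3 members were called in day1CL. The median log2 fold change of the members lay between 0.02 and 0.24 in these comparisons, and that of all genes between −0.01 and 0.00.

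*Pck1*, which supplies phosphoenolpyruvate for glyceroneogenesis, fell in 4 groups. It had 215, 225 and 193 CPM in the 3 day0RT mice, 281, 258 and 162 in day1C, 114, 111 and 181 in day3C and 106, 112 and 126 in day7C. After CL it had 225, 101 and 138 CPM in day1CL, 118, 116 and 114 in day3CL and 96.3, 155 and 171 in day7CL. All mice of day3C, day7C, day3CL and day7CL lay below the lowest day0RT mouse, while 2 of the 3 day1C mice lay above the highest. The log2 fold changes were −0.66 in day3C (SE 0.15, adjusted p = 0.0116), −0.83 in day7C (SE 0.16, adjusted p = 0.000337), −0.81 in day3CL (SE 0.15, adjusted p = 0.000223) and −0.67 in day7CL (SE 0.15, adjusted p = 0.0025). In day1CL, −0.61 (SE 0.19) missed the threshold (adjusted p = 0.0558), and its mouse at 225 CPM had only 29 adipocyte nuclei. The day3C call was lost by DESeq2 (adjusted p = 0.170) and without day0RT mouse 1 or 2 or day3C mouse 1 (−0.64, −0.62 and −0.46). The day7CL call was lost by DESeq2 (adjusted p = 0.216) and without day7CL mouse 1 (−0.34). By DESeq2 the day3CL value of −0.84 lay just above the threshold.

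*Gpd2*, the mitochondrial arm of the glycerol phosphate shuttle, rose in 3 groups. It had 141, 80.8 and 121 CPM in day0RT, 170, 193 and 203 in day1C, 194, 189 and 152 in day3C and 243, 216 and 207 in day7C. After CL it had 143, 140 and 137 CPM in day1CL, 227, 153 and 142 in day3CL and 211, 156 and 139 in day7CL. Every cold mouse lay above every day0RT mouse, whereas the day1CL and day7CL mice overlapped them. The log2 fold changes were 0.59 in day3C (SE 0.15, adjusted p = 0.0199), 0.88 in day7C (SE 0.15, adjusted p = 4.09e-05) and 0.58 in day7CL (SE 0.15, adjusted p = 0.00731), and in day1C 0.63 (SE 0.16) missed the threshold (adjusted p = 0.0541). The day3C call was lost by DESeq2 (adjusted p = 0.0708) and without day0RT mouse 2 or 3 or day3C mouse 1 (0.48, 0.61 and 0.48), and the day7CL call by DESeq2 (adjusted p = 0.0779) and without day0RT mouse 2 or 3 or day7CL mouse 1 (0.47, 0.60 and 0.32). With only the peaks near the start, the 3 values were 0.22, 0.31 and 0.17 and none was called.

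*Gpd1*, the cytosolic partner, did not follow *Gpd2*. It had 149, 126 and 104 CPM in day0RT and 125, 145 and 111 in day7C, and its group means ran from 109 ± 13.0 (SD, n = 3, day1CL) to 138 ± 16.7 (day3C). Its log2 fold changes against day0RT ran from −0.25 (SE 0.18) in day1CL to 0.17 (SE 0.14) in day3C, and none was called.

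Against day0RT, *Gk* was higher and *Aqp7* lower by log2 fold change in every treated group, but no group had both called. *Gk* had 30.7, 31.6 and 39.3 CPM in day0RT, 42.8, 62.0 and 48.3 in day1C, 48.6, 56.3 and 46.9 in day3C and 55.6, 67.4 and 58.7 in day7C. After CL it had 102, 39.3 and 49.3 CPM in day1CL, 43.7, 32.6 and 39.7 in day3CL and 51.7, 58.2 and 48.7 in day7CL. All cold and all day7CL mice lay above the day0RT mice, and the lowest day1CL mouse was level with the highest of them, but only the day7C difference was called (0.73, SE 0.20, adjusted p = 0.0150), and in day7CL 0.56 (SE 0.19) just missed the threshold (adjusted p = 0.0514). The day7C call was lost in white adipocytes alone (0.50, adjusted p = 0.291), over the peaks near the start (0.49, adjusted p = 0.336), and without day0RT mouse 1 (0.64) or day7C mouse 2 (0.67).

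*Aqp7* had 131, 116 and 116 CPM in day0RT, 113, 102 and 108 in day1C, 79.0, 82.2 and 82.6 in day3C and 98.4, 91.4 and 106 in day7C. After CL it had 61.4, 84.3 and 80.7 CPM in day1CL, 105, 85.5 and 89.6 in day3CL and 77.9, 75.9 and 134 in day7CL. Of the 18 treated mice, 1 (in day7CL) was not below all day0RT mice. The fall was called in day3C (−0.58, SE 0.15, adjusted p = 0.0191) and in day7CL (−0.44, SE 0.14, adjusted p = 0.0430). Near the start the values were −0.51 and −0.44 and not called. The day3C call was also lost by DESeq2 (adjusted p = 0.0783), in nuclei with at least 2000 counts (−0.52) and without any 1 of the 3 day0RT mice or day3C mouse 1 (−0.53, −0.59, −0.64 and −0.54), and the day7CL call by DESeq2 (adjusted p = 0.287), in white adipocytes alone (−0.42, adjusted p = 0.0774), in nuclei with at least 2000 counts (−0.43), with only the 2 groups fitted (−0.42, adjusted p = 0.103), with the replicate number as a block (−0.40, adjusted p = 0.0787) and without any 1 of the 3 day0RT mice or day7CL mouse 1 or 2 (−0.39, −0.45, −0.50, −0.25 and −0.37).

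*Dgat1* fell in 4 groups, 3 of them after CL. It had 251, 214 and 213 CPM in day0RT, 217, 240 and 188 in day1C, 157, 181 and 195 in day3C and 148, 154 and 121 in day7C. After CL it had 123, 140 and 146 CPM in day1CL, 173, 170 and 160 in day3CL and 116, 133 and 190 in day7CL. All mice but 2 of day1C lay below the day0RT mice. The log2 fold changes were −0.70 in day7C (SE 0.14, adjusted p = 0.000289), −0.65 in day1CL (SE 0.16, adjusted p = 0.00848), −0.41 in day3CL (SE 0.13, adjusted p = 0.0389) and −0.70 in day7CL (SE 0.13, adjusted p = 0.000147). The day1CL call was lost near the start (−0.53) and without day0RT mouse 1 (−0.58) or day1CL mouse 3 (−0.76), and the day7CL call without day7CL mouse 1 (−0.50). The day3CL call was lost by DESeq2 (adjusted p = 0.143), in white adipocytes alone (−0.38), in nuclei with at least 2000 counts (−0.34), near the start (−0.36) and without any 1 of the 3 day0RT mice or day3CL mouse 2 or 3 (−0.35, −0.44, −0.49, −0.45 and −0.37).

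*Dgat2* and *Lpin1* were called higher in day3CL. *Dgat2* had 251, 221 and 207 CPM in day0RT and 291, 305 and 266 in day3CL (0.37, SE 0.11, adjusted p = 0.0387), with no overlap, and its means in the other treated groups, where it was not called, were 229 to 276 CPM, the highest in day1C (log2 fold change 0.28, adjusted p = 0.414). *Lpin1*, which yields the diacylglycerol that *Dgat1* and *Dgat2* use, had 366, 502 and 479 CPM in day0RT and 536, 626 and 515 in day3CL (0.35, SE 0.11, adjusted p = 0.0468), again with no overlap, and means of 421 to 471 CPM in the other treated groups. By DESeq2 neither was called (adjusted p = 0.105 and 0.167). *Dgat2* was not called in white adipocytes alone (0.36, adjusted p = 0.0825), with nuclei of unshared barcodes (0.37, adjusted p = 0.0580), in nuclei with at least 2000 counts (0.38), over peaks of 1 gene (0.34), near the start (0.13) or without day0RT mouse 2 or 3 or day3CL mouse 1 or 2 (0.36, 0.27, 0.36 and 0.30). *Lpin1* was −0.10 (adjusted p = 0.953) over the peaks near its start, and over peaks of 1 gene (0.31), in nuclei with at least 2000 counts (0.33) and with the replicate number as a block (0.34, adjusted p = 0.0605) it was not called. Near its start *Lpin1* had only the peak at −426 bases, with 284 of its 9404 counts in white adipocytes. Its call was also lost without day0RT mouse 1 (0.21) or 3 (0.42), day3CL mouse 2 (0.23), and day1C mouse 1 or 2, day7C mouse 2, day1CL mouse 2 or day7CL mouse 2 (0.34 to 0.35).

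The enzymes of the first acylation steps were not called in any group. *Gpam* had 213, 225 and 208 CPM in day0RT, 293, 285 and 286 in day1C, 284, 248 and 260 in day3C and 305, 262 and 246 in day7C, and all cold and all day3CL mice lay above the day0RT mice, while the lowest day1CL mice were level with the highest of them. Its log2 fold changes in the cold were 0.43 (SE 0.12), 0.32 (SE 0.12) and 0.34 (SE 0.12), with adjusted p = 0.109, 0.142 and 0.0740. *Agpat2* had 168, 144 and 97.1 CPM in day0RT, and its group means stayed between 119 and 162 CPM.

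**Figure D3:**
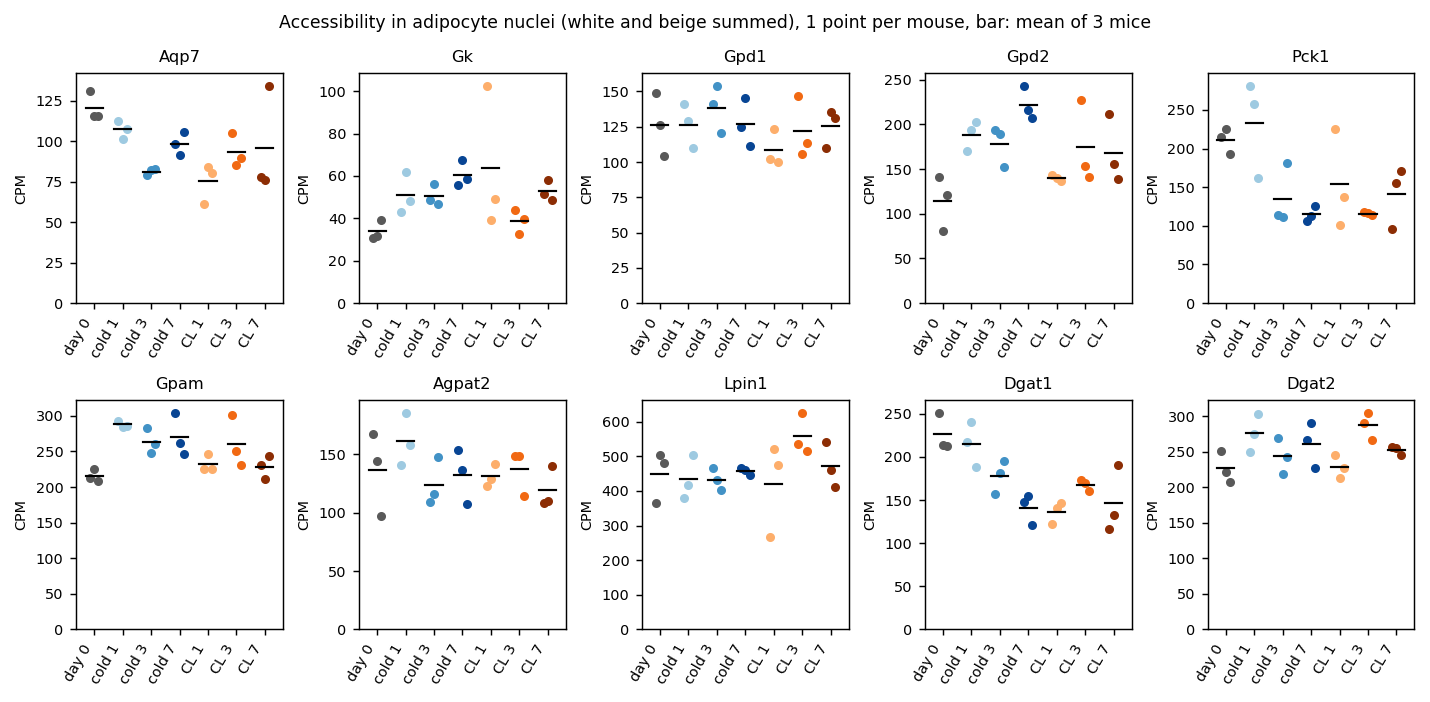
Accessibility in CPM (vertical axis, from 0) of each gene in the adipocyte nuclei of every mouse, by group, with a bar at the mean of 3 mice. The points of *Pck1* and *Dgat1* are below those of day 0 on day 7 of both treatments, and the 3 points of *Gpd2* (207 to 243 CPM) and of *Gk* (55.6 to 67.4 CPM) in cold on day 7 are above all points of day 0.

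**Figure D4:**
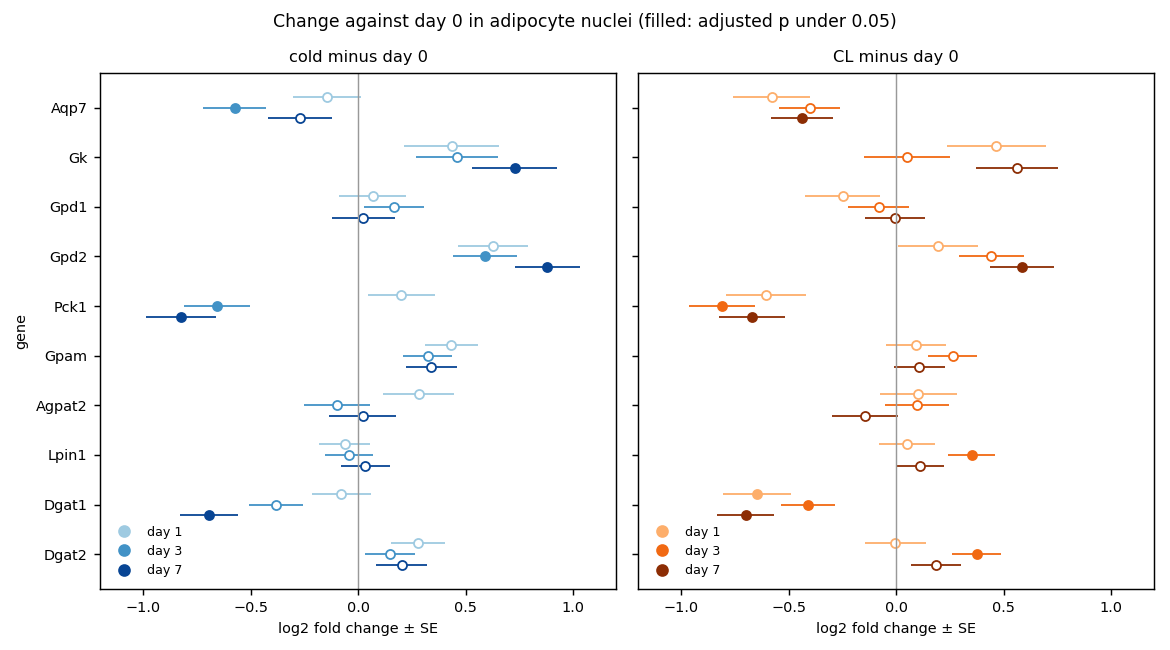
Log2 fold change against day 0 (horizontal axis, bars are SE) of the 10 genes in adipocyte nuclei, cold on the left and CL on the right, by day, with filled points past an adjusted p of 0.05. *Pck1* and *Dgat1* lie to the left of 0 on days 3 and 7 of both treatments, and *Gpd2* to the right.

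CL was also compared with cold on the same day. On day 1, *Pck1* and *Dgat1* were lower after CL than in the cold, by 0.81 (SE 0.18, adjusted p = 0.00749) and 0.57 (SE 0.16, adjusted p = 0.0487) on the log2 scale, and no member was higher, where 0.457% of all genes were higher and 0.464% lower. The *Pck1* call was lost by DESeq2 (adjusted p = 0.239) and without day1C mouse 1 (−0.60) or day1CL mouse 3 (−0.91), and the *Dgat1* call by DESeq2 (adjusted p = 0.160), with nuclei of unshared barcodes (−0.65, adjusted p = 0.0584) and without any 1 of 8 mice: day1C mouse 1 or 2, day1CL mouse 1, 2 or 3, day3CL mouse 2 or 3 and day7CL mouse 2 (−0.68 to −0.51). In white adipocytes alone *Dgat1* was not called (−0.60, adjusted p = 0.0665), nor near the start (−0.49), with a minimum of 30 nuclei (−0.55) or in nuclei with at least 2000 counts (−0.60). On day 3, *Lpin1* was higher after CL (0.39, SE 0.10, adjusted p = 0.0187) and no member was lower, where 1.01% of all genes were higher and 0.444% lower. That call was lost by DESeq2 (adjusted p = 0.270) and without day3C mouse 2 or 3 or day3CL mouse 2 (0.38, 0.35 and 0.28), and near the start the value was −0.32 (adjusted p = 0.752). On day 7 no member was called by edgeR, with 2 at an unadjusted p under 0.05, or by DESeq2, where 0.0901% of all genes were higher and 0.0208% lower by edgeR.

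Among the single peaks, 63 of the 91 passed the filter for the comparisons of groups, and 18 differed over the groups by the F test, as did 10.7% of all 47835 peaks tested. Against day0RT, 1 member peak was called in day1C (all peaks, 0.213%), 5 in day3C (1.28%), 13 in day7C (3.13%), 2 in day1CL (2.06%), 10 in day3CL (3.46%) and 9 in day7CL (4.19%). Each of these counts was 0 by DESeq2, which called at most 29 of all peaks in any of these comparisons, so the calls on single peaks rest on edgeR alone. With 1 mouse left out they ranged from 4 to 13 in day7C, lowest without day0RT mouse 3, from 1 to 6 in day3C, lowest without day0RT mouse 3 or day3C mouse 1, from 3 to 10 in day3CL, lowest without day3CL mouse 2, and from 0 to 11 in day7CL, with 0 without day7CL mouse 1. With white adipocytes alone no peak was called in day7C, 3 in day3C, 6 in day3CL and 5 in day7CL. The peak values below are CPM over all peaks.

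In *Gpd2* 8 of the 21 peaks were tested over the groups, and those that rose lay on a stretch 15 to 19 kb into the gene. Its peak at 15162 bases, which holds the E-box shown above, had 9.97, 8.37 and 11.9 CPM in day0RT, 29.0, 37.3 and 25.4 in day3C and 30.3, 33.0 and 26.2 in day7C. After CL it had 38.3, 25.4 and 22.4 CPM in day3CL and 24.8, 18.6 and 18.9 in day7CL, and every mouse of these 4 groups lay above the day0RT mice. The log2 fold changes were 1.37 (SE 0.27), 1.33 (SE 0.29), 1.19 (SE 0.27) and 1.03 (SE 0.28), with adjusted p = 0.000655, 0.00141, 0.00263 and 0.0150. The peaks at 17754, 18481 and 19040 bases rose in day7C (1.36, 1.73 and 1.62), and that at 18481 also in day7CL (1.71), while the peak nearest to the start, at 792 bases, was called in no group.

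In *Pck1* the start peak was among those that fell. Its start peak had 84.8, 94.9 and 85.8 CPM in day0RT, 50.7, 54.2 and 79.6 in day3C, 46.3, 51.8 and 61.8 in day7C, 40.0, 45.8 and 49.6 in day3CL and 35.7, 67.8 and 68.7 in day7CL, and all mice of these groups lay below the day0RT mice. It fell in these 4 groups by 0.56, 0.67, 0.85 and 0.77 on the log2 scale (SE 0.15 to 0.16). With no correction for depth, the start peak was detected in 30.6%, 19.7% and 43.5% of adipocyte nuclei in day3C. In day0RT the shares were 26.0%, 21.8% and 33.0%. The upstream peak whose sequence is shown above fell in the same 4 groups by 0.80, 0.84, 0.58 and 0.61, and the peak at 5320 bases fell in day7C, day3CL and day7CL by 1.31, 1.08 and 0.79.

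In *Dgat1* the intron peak shown above, at 2071 bases, had 46.5, 33.5 and 39.3 CPM in day0RT, 26.9, 23.6 and 16.2 in day7C and 16.0, 16.1 and 26.0 in day7CL, with no overlap. It fell by 0.87 (SE 0.22) in day7C, 0.86 (SE 0.25) in day1CL and 1.10 (SE 0.21) in day7CL, and 1 day1CL mouse, with 29 adipocyte nuclei, had no count in it. The peak at 2936 bases fell in the same groups by 0.94, 1.18 and 1.08. The peak at 3602 bases fell by 0.97 in both day7C and day7CL, and the start peak by 0.64 in day7C and 0.52 in day3CL.

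In *Dgat2*, 1 intron peak rose in 5 of the 6 treated groups. This peak, at 20748 bases and with the PPAR-RXR repeat shown above, had 29.9, 8.37 and 22.8 CPM in day0RT (18, 3 and 25 counts). The 18 treated mice had 30.9 to 48.0 CPM. The lowest of them, a day1CL mouse with 7 counts in the peak, lay just above the highest day0RT mouse. The peak rose in day1C (0.96, SE 0.24), day3C (0.85, SE 0.21), day7C (0.74, SE 0.23), day3CL (0.97, SE 0.21) and day7CL (0.78, SE 0.22), while the start peak was called in no group. The peaks at 6700 and 7462 bases rose in day3CL (0.97 and 1.13). *Gpam* likewise had a peak, at 45341 bases, that rose in day3C, day7C and day3CL by 1.16, 1.27 and 1.12. In *Gk* the start peak had 21.6, 25.1 and 28.3 CPM in day0RT and 32.8, 34.2 and 35.6 in day7C and was called in no group, as were the start peaks of *Gpd1*, *Aqp7*, *Agpat2* and *Gpam*. Pooled over mice with no correction for depth, the start peak of *Gpam* was detected in 4.65% of white nuclei. Its peak at 27984 bases was detected in 16.4%.

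Against day3C, 4 peaks of *Lpin1*, at 41900, 47744, 74434 and 75872 bases from the start, were higher in day3CL by 0.60, 0.60, 0.74 and 0.66, the only member peaks called there (all peaks, 1.79%), and that at 74434 bases was also higher than in day0RT (0.87). In day1CL against day1C the start peak of *Pck1* (−0.77) and its peak at 5320 bases (−1.13) were lower (all peaks, 0.458%), and no member peak was called on day 7 (all peaks, 0.023%).

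**Figure D5:**
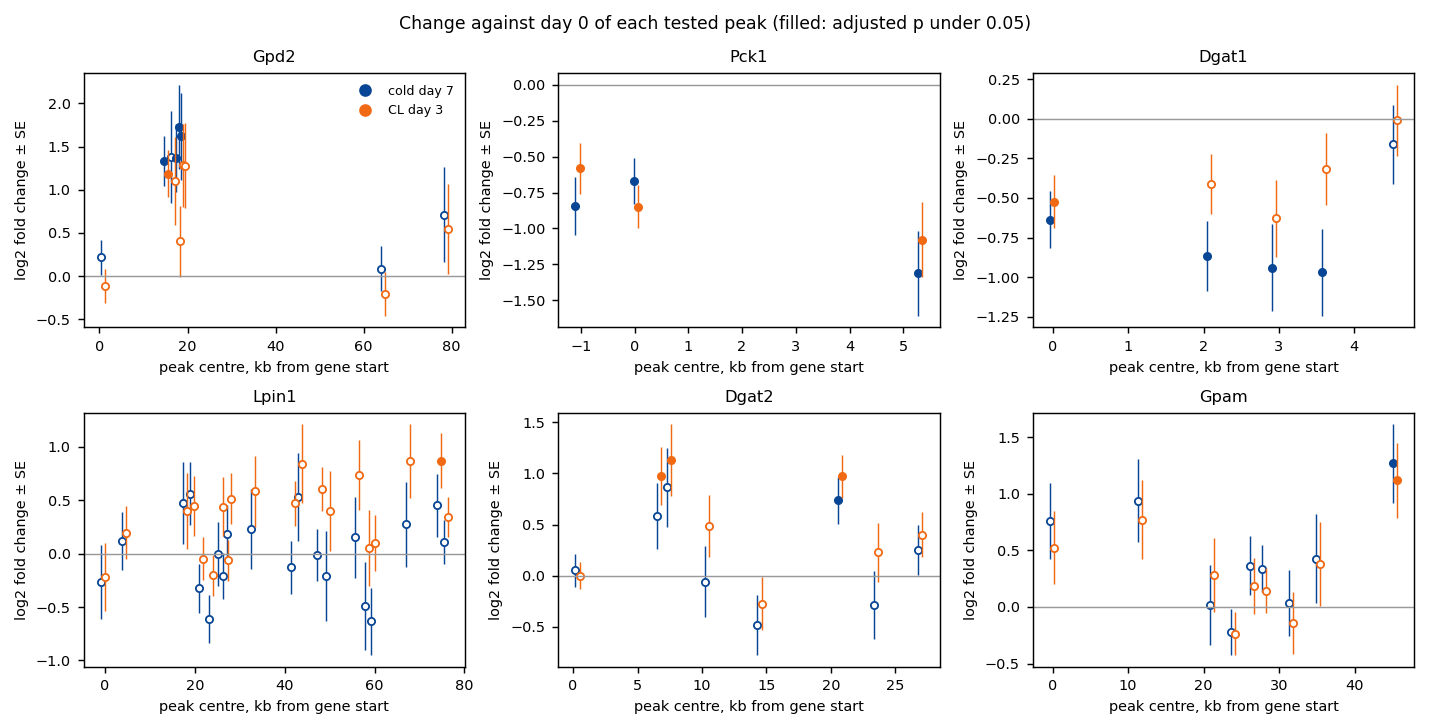
Log2 fold change against day 0 (vertical axis, bars are SE) of each tested peak of 6 genes by its distance from the gene start in kb (horizontal axis), for cold on day 7 and CL on day 3, with filled points past an adjusted p of 0.05. The *Gpd2* peaks that rose lie at 15 to 19 kb, the *Pck1* peaks fell throughout, and the *Dgat2* peak at 20.7 kb rose in both. The points of the treatments are set slightly apart.

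A wider list of 23 genes of the pathway was described in the same fits, of which 20 passed the filter (*Gpat2*, *Aqp3* and *Fitm1* did not). In beige against white adipocytes 4 of the 20 were higher and 3 lower, beside the 13.6% and 15.2% of all genes given above. The higher ones were *Agpat3* (0.37), an acyltransferase of the second step, *Gpat4* (0.22), an acyltransferase of the first step in the endoplasmic reticulum, *Pgp* (0.29), a phosphatase that can release glycerol from glycerol-3-phosphate, and *Gk5* (0.27), a relative of glycerol kinase. Lower were *Gpat3* (−0.36), *Agpat4* (−0.33) and *Pcx* (−0.23), the pyruvate carboxylase. Against day0RT, *Mogat1* (0.50), a monoacylglycerol acyltransferase, rose in day7C, and in day7CL *Lpin2* (0.48), a paralogue of *Lpin1*, rose and *Bscl2* (−0.42), the lipid droplet protein seipin, fell. No gene of the list was called in the other comparisons of 2 groups, and 3 (*Acsl1*, *Bscl2* and *Pcx*) differed over all 7 groups by the F test, beside 13.7% of all genes. Its median log2 fold change was 0.04 in beige against white, −0.10 in day7C and −0.06 in day7CL, beside 0.01, −0.01 and −0.01 over all genes.

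Outside the adipocytes few members could be tested against day0RT. In 8 cell types with at least 2 libraries in day0RT, 7 members passed the filter in 7 of them, giving 174 tests, of which 16 had an unadjusted p under 0.05. By edgeR 1 was called, *Gpd2* in the B cells of day1CL (0.52, SE 0.14, adjusted p = 0.0236), and by DESeq2 none, where 0.218% of all tests over genes were called by edgeR. The next were *Lpin1* in Cd8 T cells of day1CL (0.68, SE 0.17, adjusted p = 0.0514) and *Dgat1* in B cells of day7CL (−0.53, SE 0.16, adjusted p = 0.0654). *Pck1*, *Aqp7* and *Gpd1* passed the filter in none of these cell types. The endothelial and VSMC clusters could not be tested because day0RT had fewer than 2 libraries of 10 nuclei.

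Other measures moved with the groups. The share of adipocyte counts within 1000 bases of a gene start was 25.6% to 28.4% in day0RT, 24.0% to 24.9% in day7C and 22.2% to 23.7% in day7CL mice, and in B cells it was 41.8% to 43.4% in day0RT and 38.4% to 40.5% in day7CL. The sum of the 6 adipocyte marker genes in adipocyte nuclei was 1880 to 2245 CPM in day0RT and 2110 to 2402 in day1C. It was 1623 to 1834 in day1CL, 1661 to 1833 in day3CL and 1622 to 1763 in day7C, all below day0RT. *Dgat1* was called lower in each of these groups and *Pck1* in day3CL and day7C. The sum overlapped with day0RT in day3C (1645 to 1919) and day7CL (1637 to 1959). *Pck1* was called lower in these groups too, and *Dgat1* in day7CL. The sum of the 5 thermogenic genes was 565 to 748 in day0RT and 771 to 911 in day7C. The 5 T cell markers summed to 53.1 to 96.1 CPM in day0RT and 32.1 to 48.4 in day7C. The 5 B cell markers summed to 112 to 159 CPM in day0RT, 67.4 to 81.9 in day1CL and 88.7 to 101 in day7C. The 4 smooth muscle markers summed to 144 to 149 CPM in day0RT, 154 to 175 in day7C, 188 to 212 in day3CL and 174 to 187 in day7CL. The 4 macrophage markers summed to 33.5 to 52.7 CPM in day0RT and 53.7 to 73.0 in day3C. These marker lists are given for some groups only. The day7CL mouse whose removal ended the calls of that group had the highest median counts per adipocyte nucleus of all mice, 6686. The part of these measures in the changes of the members was not tested.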

How the data were processed

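Nuclei of iWAT from 21 mice were sequenced on 4 lanes, and the GEO labels describe the lanes, which give no group. Mouse, group and cell type were therefore taken from the deposited metadata of the nuclei. Per the labels, the authors processed the reads with Bowtie2, SAMtools, Signac and MACS2 on mm10 (versions not given in the sources used here). The deposited counts per peak and nucleus are binary (145 stored zeros and no entry above 1), which flattens peaks that are detected in many nuclei.

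Counts were summed per mouse and cell type (at least 10 nuclei) over the peaks that touch a gene or its 2000 bases upstream (GENCODE models), with peak coordinates as the authors gave them. They were tested with edgeR 4.0.16 in R 4.3.3 (quasi-likelihood F tests, TMM, filterByExpr with a minimum count of 10, a total of 15 and a share of 0.7), Benjamini-Hochberg adjustment over all features, and a threshold of 0.05. The beige against white fit had the treatment group as a covariate, and the groups were fitted together. DESeq2 1.42.0 was an alternative, as were no filter, other minimums of nuclei or counts, peaks within 2000 bases of the start, peaks of 1 gene, white adipocytes, the replicate number as a block, 2 groups alone and leaving out each mouse. The use of nuclei with unshared barcodes was chosen after seeing the data. The study ran its snATAC-seq in 3 independent batches, and shared barcodes lay only in mice of the same replicate number, so that number may mark a batch, although deviations of same-numbered mice correlated at only −0.11 to 0.15 (63 pairs). No barcode was shared between mice of the same day. Whether the preparation also followed the day is not given and was not tested. The p-values of the comparisons of groups measure the spread between mice. In beige against white, the white and beige libraries of a mouse entered as independent. The mouse as a block was an alternative there. Members, gene lists and tests were chosen with earlier results of these data known. All members, their start peak, their peak with the smallest p and the 3 most alike genes were named by rule (1 of the latter is not reported here), and further peaks were named after their values were seen. Sequences and motifs were computed in Python 3.11.15.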

Additional observations from a re-analysis of the deposited data

Results flagged for a closer look

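The effects of CL and cold on the same day differed for 3 members by the test of the difference itself (edgeR, Benjamini-Hochberg adjustment over all genes). On day 1 *Pck1* was lower after CL than in the cold by −0.81 on the log2 scale (adjusted p = 0.00749), with 225, 101 and 138 CPM after CL against 281, 258 and 162 in the cold, and these ranges overlapped. On the same day *Dgat1* differed by −0.57 (adjusted p = 0.0487), with 123, 140 and 146 CPM against 217, 240 and 188, which did not overlap. On day 3 *Lpin1* differed by 0.39 (adjusted p = 0.0187), with 536, 626 and 515 CPM against 465, 431 and 402, again without overlap. The day1CL mice had 29, 68 and 654 adipocyte nuclei, and the part of this in both day 1 values was not tested. None of the 3 was called by DESeq2.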

How the results depend on the processing

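Of 812 alternative values of the called differences in members, 695 kept their direction and their side of the threshold, 114 kept the direction and missed the threshold, and 3 turned, all of them over the peaks near the start: *Gpd2* in beige against white (−0.00374) and *Lpin1* in day3CL against day0RT (−0.10) and against day3C (−0.32). Most of the 812 values leave out 1 mouse. For the comparisons of groups, many of these mice belong to neither group compared. The total is therefore no measure of how much a call depends on its own mice. The near-start values of *Lpin1* rest on the peak at −426 bases alone, which held 284 of its 9404 counts in white adipocytes. The cause of the 3 turns was not tested. In day7C, *Gpd2*, *Pck1* and *Dgat1* stayed called by DESeq2, in white adipocytes alone and without any 1 mouse, with values of 0.77 to 0.99, −0.91 to −0.77 and −0.77 to −0.57 without 1 mouse.

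The number of members called changed as follows. Near the start it was 2 (of 6) in beige against white, 1 (of 3) in day3C, 2 (of 4) in day7C, 0 (of 1) in day1CL, 1 (of 4) in day3CL, 2 (of 4) in day7CL, 1 (of 2) in day1CL against day1C, 0 (of 1) in day3CL against day3C and 2 (of 7) over all groups. By DESeq2 it was 0 in day3C, 0 in day3CL, 1 in day7CL, and 0 in day1CL and in day3CL against cold. With no filter it was 1 in day1C and 3 in day1CL, with only the 2 groups compared 1 in day1C and 3 in day1CL, and *Aqp7* in day7CL was not called (−0.42), with unshared barcodes 1 in day1C and 1 in day1CL against day1C, over peaks of 1 gene 3 in day1CL and 2 in day3CL, with at least 30 nuclei 2 in day1CL and 1 in day1CL against day1C, with at least 2000 counts per nucleus 1 in day3CL and 1 in day1CL against day1C, and in white adipocytes 2 in day3CL and 1 in day1CL against day1C. The call in B cells was 0 by DESeq2.

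Of member peaks, 35 (of 15) were called in beige against white with no filter. In the comparisons of groups DESeq2 called 0 each. With no filter the calls were 0 in day1C, 1 in day3C, 2 in day7C, 0 in day1CL, 3 in day3CL, 4 in day7CL, and against cold 0 on day 1 and 1 on day 3. In white adipocytes they were 0 in day1C, 3 in day3C, 0 in day7C, 1 in day1CL, 6 in day3CL, 5 in day7CL and 0 in day1CL against day1C.

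With 1 mouse left out, members called ranged from 5 to 6 in beige against white, 0 to 1 in day1C, 0 to 3 in day3C, 3 to 5 in day7C, 0 to 3 in day1CL, 1 to 5 in day3CL, 0 to 5 in day7CL, 0 to 2, 0 to 1 and 0 to 0 against cold on days 1, 3 and 7, and 5 to 7 over all groups. Member peaks called ranged from 9 to 20 in beige against white, 0 to 1, 1 to 6 and 4 to 13 in cold, 0 to 3, 3 to 10 and 0 to 11 after CL, and 0 to 3, 0 to 4 and 0 to 0 for CL against cold.

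Whether the replicate numbers pair the mice is not settled. Of 21 mice, 10 correlated best with a mouse of their own number, where 63 pairs of mice shared a number and 126 did not. With the replicate block, 3 members in place of 1 were called in day1CL, and *Lpin1* in day3CL (0.34) and *Aqp7* in day7CL (−0.40) were not. The block changed no other call of a member named here. The 29 to 933 adipocyte nuclei of a mouse limit the precision of single peaks.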
